A study of Mus musculus with 2 samples.

Results

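The Toll-like receptors and adaptors described here are 10 of the 32286 features counted: the receptors Tlr2, Tlr3, Tlr4, Tlr7, Tlr9 and Tlr13, the co-receptors Cd14 and Ly96, and the adaptors Myd88 and Ticam1. Members were matched by gene symbol, and all 10 had UMIs (unique molecular identifiers, 1 per captured RNA molecule) in filtered cells of both libraries. The study asked how factors released by a tumor prepare the lung for metastasis. Female BALB/c mice, labelled as 9 to 10 weeks old, received intravenous injections for 3 weeks of either tumor conditioned media (TCM), in which pieces of mouse 4T1 breast tumors had been kept, or control media (CM), the same medium incubated without tumor. Whole lungs were dissociated and each group gave 1 droplet library of single cells. How many mice were pooled was not stated. A single library per group gives no spread between animals, so no test was possible, and all intervals below are 95% intervals that cover counting error only.

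Toll-like receptors are membrane proteins that bind molecules shared by many microbes, and some released by damaged cells. Tlr2 binds bacterial lipoproteins with Tlr1 or Tlr6 as partner, and Tlr4 binds lipopolysaccharide on the cell surface together with Ly96 (also called MD-2) after Cd14 has handed the ligand over. Tlr3, Tlr7, Tlr9 and Tlr13 sit in endosomes and bind double-stranded RNA, single-stranded RNA, CpG DNA and bacterial 23S ribosomal RNA. Myd88 carries the signal of all of these receptors except Tlr3, which uses Ticam1 (also called TRIF), and Tlr4 uses both. The routes lead to NF-κB and to interferon regulatory factors, and in the lung they are best known from macrophages and neutrophils.

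Sequencing gave 31944151 UMIs for the CM lungs, with 7988 cells left by the filters (median 2085 UMIs), and 36648719 UMIs for the TCM lungs with 7707 cells (median 2346). The libraries shared 93 cell barcodes. Each cell was put in the class of which it showed the most of 8 marker genes, with at least 3 detected, no tie and fewer than 3 markers of any class of another lineage. This gate placed 5200 CM cells (65.1%) and 5269 TCM cells (68.4%) in 21 classes, named "-like" throughout, and every gene was summed over the cells of a class. Of the placed cells, 3221 and 3607 lay at the edge of the gate, with just 3 own markers or with 2 of another lineage. Comparisons between libraries used the 11 classes that kept 50 or more cells in CM and in TCM alike. Levels are given as CP100k, the UMIs of a gene per 100000 UMIs of the class. Differences between genes in this level were not tested. RNA outside cells also enters droplets, and T-like cells, which lack most of these receptors, served as the reference for it. In droplets of at most 50 UMIs, Cd14 stood at 6.89 CP100k in CM and 37.3 in TCM.

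**Figure D1:**
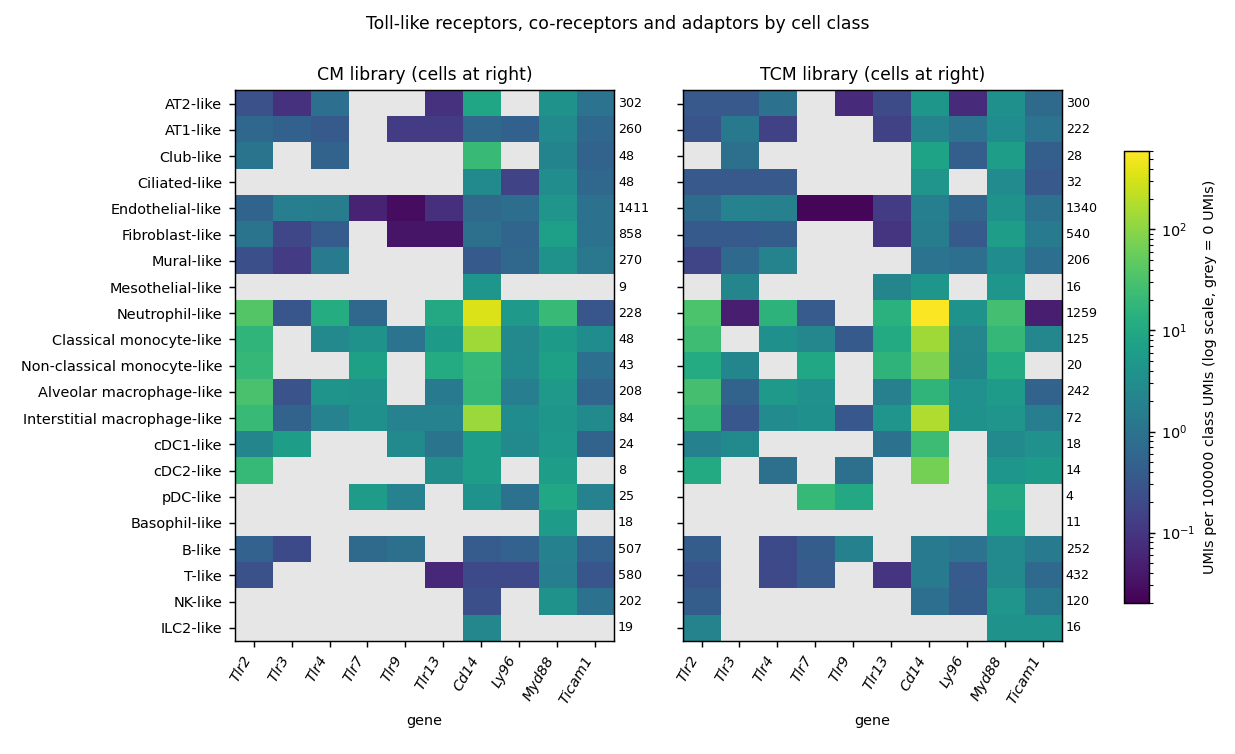
Level of each gene (columns) in each of the 21 marker-gated classes (rows) in the CM and TCM libraries, as UMIs per 100000 class UMIs on a log colour scale; grey cells held 0 UMIs and the numbers at the right are cells. Neutrophil-like and macrophage-like rows carry most of the bright cells, and the Cd14 column is brightest in neutrophil-like cells, at 346 and 554.

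Tlr2 lies on chromosome 3 (83836272 to 83841767, minus strand, GRCm38). It was a gene of phagocytes in both libraries. In neutrophil-like cells it had 122 UMIs in CM and 667 in TCM, or 38.4 and 32.3 CP100k. Alveolar macrophage-like cells had 328 and 327 UMIs (31.2 and 29.1 CP100k), and interstitial macrophage-like cells 80 and 59 (21.6 and 19.3 CP100k). The intervals of the first 2 classes overlapped in each library, whereas that of the interstitial macrophage-like cells lay below the alveolar one. All other compared classes were far lower, at 1.05 CP100k or less, and T-like cells had 4 and 3 UMIs (0.257 and 0.290 CP100k). After each cell was thinned to 1000 UMIs, 26.4% of the neutrophil-like CM cells (interval 19.5 to 34.2%) and 23.8% of the TCM cells (21.1 to 26.7%) had a Tlr2 UMI, against 0.201% and 0.554% of T-like cells. Without thinning the neutrophil-like shares were 36.0% and 33.8%. The log2 ratio of TCM to CM was -0.25 in neutrophil-like cells (interval -0.53 to 0.04), -0.10 in alveolar macrophage-like cells (-0.33 to 0.13) and -0.17 in interstitial macrophage-like cells (-0.68 to 0.34). Each of these intervals included 0, so no difference of Tlr2 per UMI was detectable in these classes at this depth. Monocytes were too few for the comparison. Classical monocyte-like cells had 34 and 132 UMIs (17.1 and 24.4 CP100k), and non-classical monocyte-like cells 22 and 5 (19.2 and 11.5 CP100k). A ratio for classical monocyte-like cells taken from clusters is given below.

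Promoter sequences were available for 6 of the 10 members in the RefSeq-derived table of build GRCm38.p6, and 3 are shown, for receptors led by phagocytes (Tlr2, Tlr13) or seen in B-like cells (Tlr9). They run 5′ to 3′ on the strand of the gene up to the first annotated exon. Capitals mark GAGGAA or its reverse complement TTCCTC, the core bound by ETS factors such as PU.1, a regulator of myeloid and B cells. Both strands were searched, and the motif was chosen with the levels known.
Tlr2 (chr3:83841768-83841858, minus strand): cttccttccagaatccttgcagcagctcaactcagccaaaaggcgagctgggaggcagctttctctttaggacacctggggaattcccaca
Tlr13 (chrX:106143025-106143203, plus strand): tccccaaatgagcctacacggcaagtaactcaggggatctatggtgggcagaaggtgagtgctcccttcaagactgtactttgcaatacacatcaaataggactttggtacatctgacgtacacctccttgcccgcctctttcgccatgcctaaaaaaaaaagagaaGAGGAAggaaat
Tlr9 (chr9:106222348-106222597, plus strand): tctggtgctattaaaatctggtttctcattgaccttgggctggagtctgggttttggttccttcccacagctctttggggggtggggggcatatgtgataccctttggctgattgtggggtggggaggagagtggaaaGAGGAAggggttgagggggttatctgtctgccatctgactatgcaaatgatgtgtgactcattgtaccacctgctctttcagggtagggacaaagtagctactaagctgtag
The motif occurred 1 time in the 179 bases of Tlr13, where 17.1% of all 32851 promoters hold it in a stretch of that length. It occurred 1 time in the 250 bases of Tlr9 (23.3% of all promoters) and was not among the 91 bases of Tlr2 (9.2%). Of the adaptors, whose sequences are not printed, Ticam1 held 1 copy in 231 bases (21.4% of all promoters) and Myd88 held 0 in 227 bases (21.1%). The Myd88 stretch (119340042 to 119340268) lies within the gene coordinates given below, not upstream of them. Tlr3, the other member with a promoter sequence, was not searched because too few bases preceded an annotated exon. A match of these letters is not a measured binding site.

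Tlr4 (chromosome 4, 66827584 to 66930284, plus strand) was led by neutrophil-like cells. They held 37 CM and 329 TCM UMIs, 11.7 and 15.95 CP100k, and their interval lay above that of every other compared class in both libraries. Alveolar macrophage-like cells followed with 44 and 59 UMIs (4.18 and 5.25 CP100k) and interstitial macrophage-like cells with 7 and 9 (1.89 and 2.94 CP100k). Outside the phagocytes, endothelial-like cells had 56 and 73 UMIs (1.56 and 1.77 CP100k), mural-like cells 11 and 12 (1.37 and 2.04 CP100k) and AT2-like cells, the surfactant-producing alveolar type II cells, 10 and 14 (0.856 and 0.985 CP100k). From the alveolar macrophages downward, neighbours in the order had overlapping intervals. T-like cells had 0 and 2 UMIs. The log2 ratio in neutrophil-like cells was 0.45 (interval -0.04 to 0.98), and it was 0.18 in endothelial-like cells (-0.34 to 0.71) and 0.33 in alveolar macrophage-like cells (-0.26 to 0.93). None of the 6 Tlr4 ratios with at least 20 UMIs excluded 0. In neutrophil-like cells thinned to 1000 UMIs the share with a Tlr4 UMI was 14.2% in CM (9.00 to 20.9%) and 13.3% in TCM (11.2 to 15.7%), although the unthinned shares were 12.3% and 21.8%, at median depths of 1186.5 and 1509 UMIs. No thinned T-like cell had a Tlr4 UMI, in 498 CM and 361 TCM cells.

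Tlr3 (chromosome 8, 45395665 to 45411080, minus strand, overlapped on the other strand by Gm45542) had a different pattern. Endothelial-like cells held 59 CM and 80 TCM UMIs, which was 65.6% of all Tlr3 UMIs in placed cells in both libraries. Their level was 1.65 CP100k in CM (interval 1.25 to 2.12) and 1.94 in TCM (1.54 to 2.41), with a log2 ratio of 0.24 (-0.27 to 0.75). They were the only compared class above T-like cells in both libraries. In T-like cells Tlr3 had 0 UMIs in both libraries (a sum of 3 there would be 0.193 and 0.290 CP100k). Alveolar type I (AT1-like) cells had 4 and 9 UMIs, fibroblast-like cells 5 and 8, and AT2-like cells 1 and 5. In TCM alone, the AT1-like level (1.31 CP100k, interval 0.601 to 2.50) was also above T-like cells. Neutrophil-like cells had 1 UMI in each library. The highest CM level, 6.45 CP100k from 12 UMIs, was in the 24 cDC1-like cells, the dendritic cells that take up dead cells, and the 18 TCM cells of that class had 3 UMIs (2.76 CP100k, interval 0.569 to 8.07).

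Among the compared classes, Tlr7 (chromosome X, 167304929 to 167330558, minus strand) was mainly seen in macrophages. Alveolar macrophage-like cells had 42 and 41 UMIs (3.99 and 3.65 CP100k) and interstitial macrophage-like cells 13 and 11 (3.52 and 3.60 CP100k). These 2 levels had overlapping intervals, and the next compared class, B-like cells with 7 and 2 UMIs (0.711 and 0.413 CP100k), lay below them. In 5 of the 11 classes Tlr7 had 0 UMIs in both libraries. The log2 ratios of -0.13 (interval -0.79 to 0.53) and 0.03 (-1.27 to 1.31) included 0. Smaller classes had levels as high or higher from few UMIs. Tlr7 had 6 UMIs in the 25 CM and 2 in the 4 TCM plasmacytoid dendritic (pDC-like) cells (5.91 and 19.8 CP100k). Non-classical monocyte-like cells had 8 and 4 (6.99 and 9.17 CP100k), and classical monocyte-like cells 8 and 13 (4.03 and 2.40 CP100k). The intervals of these classes overlapped those of alveolar macrophage-like cells. Neutrophil-like cells had only 2 and 8 UMIs, 0.630 and 0.388 CP100k, and T-like cells 0 and 4.

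Tlr9 (chromosome 9, 106222598 to 106226883, plus strand) was the rarest member, with 42 CM and 35 TCM UMIs in all filtered cells. B-like cells had 9 in each library, 0.914 CP100k in CM (interval 0.418 to 1.74) and 1.86 in TCM (0.85 to 3.53). They were the only compared class above T-like cells in both libraries, and T-like cells had 0 in both. In CM alone, interstitial macrophage-like cells were above T-like cells as well. Interstitial macrophage-like cells had 7 UMIs in CM (1.89 CP100k, interval 0.762 to 3.90) and 1 in TCM (0.327, interval 0.00828 to 1.82), and cDC1-like cells had 5 and 0. No Tlr9 UMI was seen in neutrophil-like or alveolar macrophage-like cells. For the TCM neutrophil-like cells, a count of 0 among 2062681 UMIs allows a level of up to 0.179 CP100k.

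Tlr13 (chromosome X, 106143204 to 106160493, plus strand), whose promoter is printed above, was also led by neutrophil-like cells. They had 32 CM and 296 TCM UMIs, 10.1 and 14.4 CP100k, above every other compared class. Interstitial macrophage-like cells had 7 and 13 UMIs (1.89 and 4.25 CP100k) and alveolar macrophage-like cells 14 and 20 (1.33 and 1.78 CP100k). Every other compared class was at 0.211 CP100k or less. The neutrophil-like log2 ratio was 0.51 (interval -0.02 to 1.08). The share of neutrophil-like cells with a Tlr13 UMI at 1000 UMIs per cell was 6.08% in CM (2.82 to 11.2%) and 12.0% in TCM (9.97 to 14.2%), and it was 12.7% and 19.0% without thinning. No thinned T-like cell had a Tlr13 UMI. Non-classical monocyte-like cells had 13 UMIs in 43 CM cells and 7 in 20 TCM cells, levels of 11.4 and 16.05 CP100k.

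Cd14, which binds lipopolysaccharide and also assists Tlr2, was the most abundant member in number of UMIs, with 3116 in CM and 18371 in TCM filtered cells. Neutrophil-like cells held 1097 CM UMIs (346 CP100k, interval 325 to 367) and 11434 TCM UMIs (554 CP100k, interval 544 to 565). The TCM level was 1.60 times the CM level (1.51 to 1.71). At 1000 UMIs per cell, 75.0% of CM cells (67.2 to 81.7%) and 89.5% of TCM cells (87.4 to 91.4%) had a Cd14 UMI. The unthinned shares were 73.2% and 91.3%, and those of T-like cells 0.517% and 3.24%, at medians of 2521 and 2432 UMIs. The summed level of the 8 neutrophil markers in these cells also differed, at 5274 CP100k in CM and 8115 in TCM with all 8 detected in both, and its part in the Cd14 difference was not tested.

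Interstitial macrophage-like cells came second for Cd14, with 467 UMIs in 84 CM cells (126 CP100k) and 527 in 72 TCM cells (172 CP100k), 1.36 times as high (interval 1.20 to 1.55). Alveolar macrophage-like cells had 200 and 189 UMIs, 19.0 and 16.8 CP100k, with a ratio of 0.885 (0.721 to 1.08). The latter interval included 1, so no difference was detectable in alveolar macrophage-like cells, and the 2 ratio intervals did not overlap. The 48 CM and 125 TCM classical monocyte-like cells, too few in CM for the comparison, stood at 140 (124 to 157) and 137 CP100k (127 to 147). Among compared classes, the first 4 levels in the order, from neutrophil-like to AT2-like cells, did not overlap in either library. AT2-like cells had 101 UMIs in CM and 67 in TCM (8.65 and 4.72 CP100k), but 86.1% of the CM UMIs came from 10 cells, and the log2 ratio of -0.87 turned to 1.12 when each cell was given equal weight and to 0.93 when classes were taken from clusters.

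Low levels of Cd14 outside phagocytes were higher in TCM, as was its free RNA. T-like cells had 3 UMIs in CM and 15 in TCM, 0.193 and 1.45 CP100k. Endothelial-like cells had 25 and 72, 0.698 and 1.75 CP100k, a log2 ratio of 1.32 (interval 0.65 to 2.04). Their TCM level had an interval of 1.37 to 2.20, which overlapped that of T-like cells (0.813 to 2.39). From the droplets of at most 50 UMIs, 12.2 CM and 128 TCM Cd14 UMIs were expected as free RNA in endothelial-like cells, the latter above the 72 counted. By this estimate nothing was left of the TCM level, and no ratio corrected for free RNA could be had. The estimate was too high in TCM T-like cells, with 3.99 CP100k predicted and 1.45 counted. How much of the endothelial-like Cd14 was free RNA therefore remains unknown. The 8 neutrophil markers summed to 4.36 and 28.2 CP100k in endothelial-like cells, with none at 0, and to 2.38 and 33.7 in T-like cells, with 2 at 0 in CM and 0 in TCM.

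Ly96, the small protein that completes the Tlr4 binding pocket, is on chromosome 1 (16688051 to 16709611, plus strand). Neutrophil-like cells had 17 and 79 UMIs (5.35 and 3.83 CP100k), interstitial macrophage-like cells 11 and 12 (2.98 and 3.92 CP100k) and alveolar macrophage-like cells 17 and 41 (1.62 and 3.65 CP100k). In TCM these 3 intervals overlapped, and those of the neutrophil-like and alveolar macrophage-like cells lay above all other compared classes, whereas that of the interstitial macrophage-like cells (2.03 to 6.85) reached those of B-like, NK-like and AT1-like cells. In CM no neighbours in the order were apart. The alveolar macrophage-like log2 ratio was 1.17 (interval 0.33 to 2.08), and it lay between 0.69 and 1.57 under the alternatives. The neutrophil-like ratio was -0.48 (-1.25 to 0.37). Endothelial-like cells had 30 and 24 UMIs (0.838 and 0.582 CP100k), and AT2-like cells 0 and 1.

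**Figure D2:**
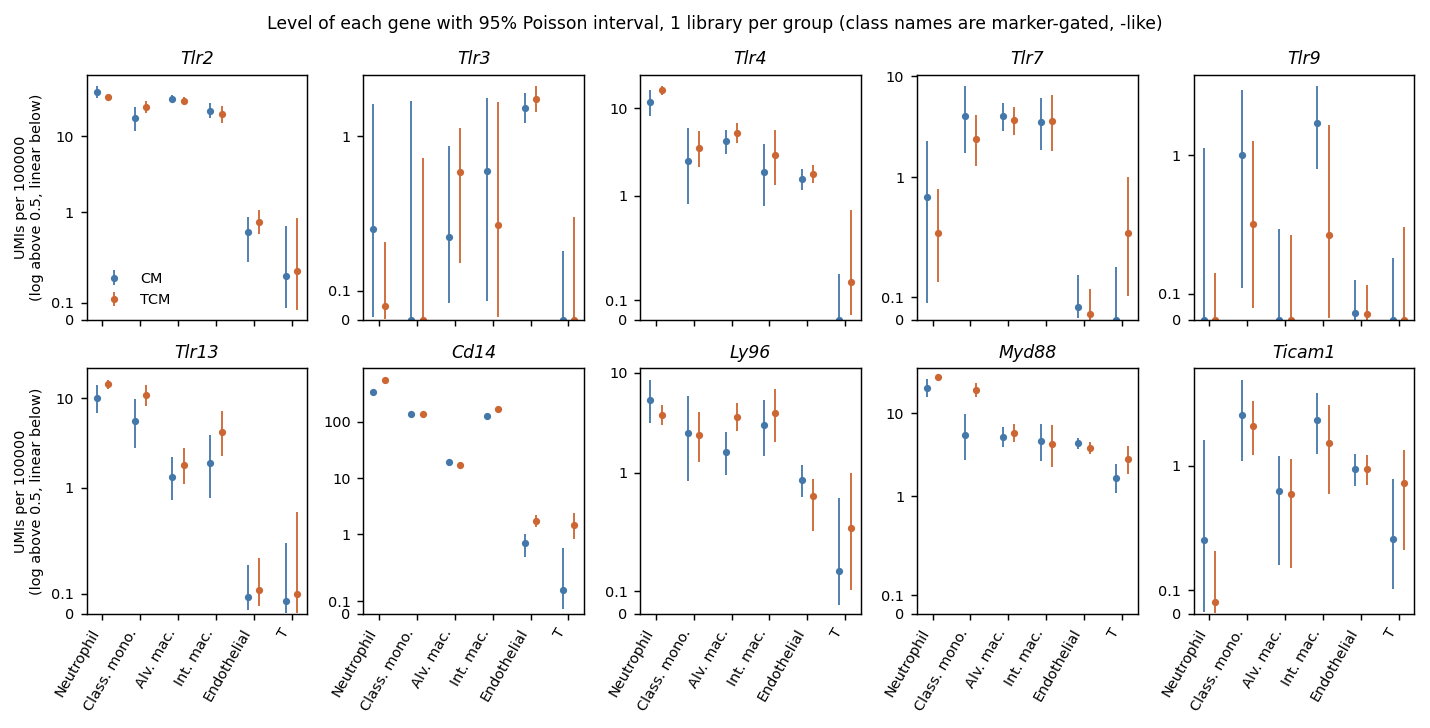
Level of each of the 10 genes (one panel each) in 6 classes, CM in blue and TCM in orange, as UMIs per 100000 class UMIs on a scale that is logarithmic above 0.5 and linear below; bars are 95% Poisson intervals of 1 library each. Cd14 runs from 554 in TCM neutrophil-like to 0.193 in CM T-like cells, and in the Ticam1 panel the neutrophil-like cells are lowest.

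The adaptors were spread more evenly. Myd88 (chromosome 9, 119335934 to 119341411, minus strand, overlapped by Slc22a14 and by Acaa1a on the other strand) had at least 10 UMIs in every compared class of both libraries. Neutrophil-like cells had the highest level, 65 UMIs in CM (20.5 CP100k, interval 15.8 to 26.1) and 563 in TCM (27.3, interval 25.1 to 29.6), a log2 ratio of 0.41 (0.04 to 0.81). Below them came fibroblast-like cells (190 and 138 UMIs, 6.86 and 6.52 CP100k), alveolar macrophage-like cells (55 and 66, 5.23 and 5.87 CP100k) and interstitial macrophage-like cells (17 and 13, 4.60 and 4.25 CP100k). Endothelial-like cells had 157 and 159 UMIs (4.38 and 3.85 CP100k). The lowest 2 levels were those of T-like cells, 1.67 and 2.81 CP100k, and B-like cells, 1.83 and 2.69. Classical monocyte-like cells had 11 UMIs in CM (5.53 CP100k, interval 2.76 to 9.90) and 104 in TCM (19.2, interval 15.7 to 23.3).

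Ticam1 (chromosome 17, 56269319 to 56276786, minus strand) was low everywhere. Interstitial macrophage-like cells had the highest compared level, 10 and 5 UMIs (2.71 and 1.63 CP100k), endothelial-like cells had 33 and 38 (0.921 in both libraries), and fibroblast-like cells 26 and 29 (0.939 and 1.37 CP100k). No neighbours in the order had separate intervals. Neutrophil-like cells were the lowest of the compared classes. They had 1 UMI among 317498 in CM and 1 among 2062681 in TCM, a TCM level of 0.0485 CP100k (interval 0.00123 to 0.270), below the interval of endothelial-like cells (0.652 to 1.26) and just below that of T-like cells (0.272 to 1.40). In CM the interval (0.00797 to 1.75) was too wide to separate them. The class that led for Tlr4, Tlr13, Cd14 and Myd88 thus had next to no detected Ticam1.

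Set against T-like cells in both libraries, Tlr4 was above them in 5 of the other 10 compared classes, Cd14 in 4, Tlr2, Tlr13, Ly96 and Myd88 in 3 each, Tlr7 in 2, Tlr3 and Tlr9 in 1 each and Ticam1 in 0. Most cells use the adaptors Myd88 and Ticam1, so for them the T-like level is only a reference and no measure of free RNA. In droplets of at most 50 UMIs, Ticam1 had 1 UMI in each library (0.143 and 0.232 CP100k). Which class could sense each ligand was read from the classes with more than 3 UMIs in each library of every component scored. Only the members named with each ligand below were scored. This is a description of RNA sums and not of proteins or of single cells, and a class with more UMIs passes more easily (3582018 and 4125495 in endothelial-like cells against 411218 and 235800 in NK-like cells). Tlr2 with Myd88 was complete in 5 of 11 classes, the phagocytes plus endothelial-like and fibroblast-like cells, although in the latter 2 Tlr2 was not above T-like cells in both libraries. The partners Tlr1 and Tlr6 were not scored. Tlr6 had more than 3 UMIs in each library in neutrophil-like, alveolar macrophage-like and endothelial-like cells. Neither partner did in interstitial macrophage-like cells (Tlr1 2 and 6, Tlr6 0 and 2) or fibroblast-like cells (Tlr1 1 and 1, Tlr6 2 and 5). Tlr3 with Ticam1 was complete in 3, the AT1-like, endothelial-like and fibroblast-like cells, of which only the endothelial-like cells had Tlr3 above T-like cells in both libraries and none had Ticam1 above them. All 5 components for lipopolysaccharide (Tlr4, Ly96, Cd14, Myd88 and Ticam1) passed in 4 classes, the endothelial-like, fibroblast-like and both macrophage-like classes, and neutrophil-like cells missed it through Ticam1. The other 4 components passed in neutrophil-like cells. Tlr4 also uses Myd88, so this miss does not mean that they cannot sense lipopolysaccharide. In the endothelial-like and fibroblast-like cells Cd14 and Ly96 were not above T-like cells in both libraries, and in the fibroblast-like cells neither was Tlr4. Tlr7 with Myd88 was complete in the 2 macrophage classes, Tlr9 with Myd88 in B-like cells alone, and Tlr13 with Myd88 in 3 classes, the neutrophil-like and both macrophage-like cells.

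Components were also looked for in the same cell. Of the 28 CM and 274 TCM neutrophil-like cells with a Tlr4 UMI, 71.4% (51.3 to 86.8%) and 93.4% (89.8 to 96.1%) also had Cd14. The shares among cells without Tlr4 were nearly equal, 73.5% and 90.8%. In alveolar macrophage-like cells the corresponding values were 67.6% and 65.1% with Tlr4, and 39.1% and 42.2% without it, but cells with Tlr4 were deeper (medians of 6085.5 and 4868 UMIs against 4241 and 4157). In endothelial-like cells 0 of 50 CM and 1 of 68 TCM cells with Tlr4 had Cd14. Tlr4 and Ly96 were seen together in 2 CM and 18 TCM neutrophil-like cells. Ly96 was in 7.14% and 6.57% of the cells with Tlr4, and in 7% and 5.48% of those without it.

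The next comparison asked which levels within a class differed between TCM and CM. Of 110 pairs of gene and compared class, 42 had at least 20 UMIs over both libraries, and 4 of them differed at least 2-fold. Cd14 in endothelial-like cells was 1 of 7 counted members there, where 2.52% of all genes with as many UMIs were past 2-fold. Ly96 was 1 of 7 in alveolar macrophage-like cells (all genes 4.76%), Tlr13 was 1 of 6 in interstitial macrophage-like cells (7.11%), and Tlr2, lower in TCM, was 1 of 6 in fibroblast-like cells (2.82%). With so few members counted, 1 pair per class cannot be read as a result about the members. In neutrophil-like cells 0 of 6 members passed, where 21.7% of all genes did, and the median log2 ratio was 0.43 over the 6 members and -0.20 over all genes. Relative to that all-gene median, the ratio was 0.88 for Cd14, 0.71 for Tlr13, 0.65 for Tlr4, 0.61 for Myd88, -0.05 for Tlr2 and -0.29 for Ly96. In alveolar macrophage-like cells the all-gene median was 0.11, and relative to it Ly96 was at 1.06. No member passed in AT2-like cells (0 of 4, all genes 6.76%) or mural-like cells (0 of 2, 4.13%). The single counted member, Myd88, did not pass in AT1-like (4.81%), B-like (6.57%), T-like (4.11%) or NK-like cells (6.95%).

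The intervals of the 4 pairs were wide. Tlr13 in interstitial macrophage-like cells (7 and 13 UMIs) had a log2 ratio of 1.17 with an interval of -0.27 to 2.73 that included 0. Tlr2 in fibroblast-like cells (29 and 8 UMIs) had -1.47 (-2.81 to -0.31), and it became 0.27 when classes were taken from clusters. Of all 42 intervals, those of 8 pairs excluded 0: Cd14 in AT2-like, endothelial-like, fibroblast-like, neutrophil-like and interstitial macrophage-like cells, Ly96 in alveolar macrophage-like cells, Myd88 in neutrophil-like cells and Tlr2 in fibroblast-like cells. The share of all genes whose interval excluded 0 is not given here, so this count cannot be read as a result about the members. Cd14 in fibroblast-like cells (25 and 34 UMIs, 0.83, interval 0.04 to 1.64) was among the least stable, at 3.41 with clusters and 3.55 with at most 1 marker of another lineage. There, 51.5 free UMIs were expected in TCM, more than the 34 counted, by the estimate that was too high in T-like cells.

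**Figure D3:**
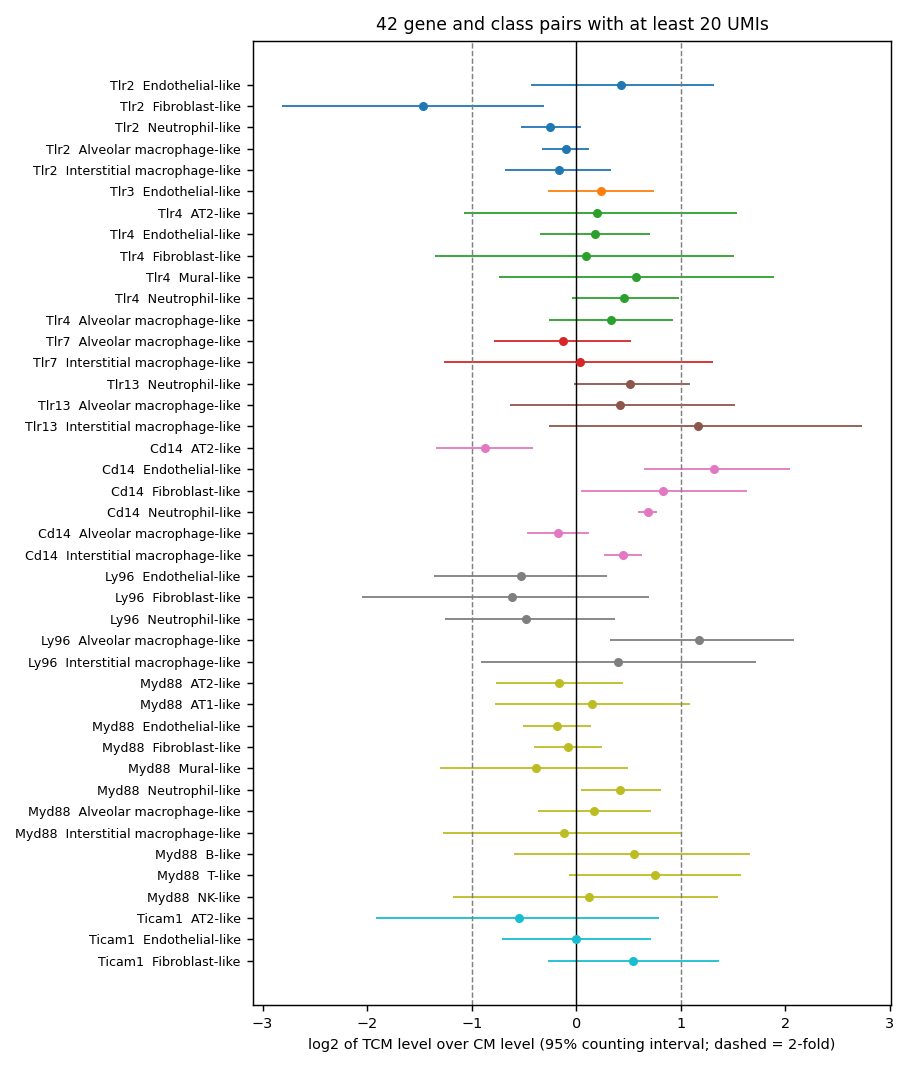
Log2 ratio of the TCM to the CM level for the 42 pairs of gene and class with at least 20 UMIs, with 95% counting intervals from 1 library per group; dashed lines mark 2-fold. Most points lie between the dashed lines, and the narrowest interval is that of Cd14 in neutrophil-like cells, 0.59 to 0.77.

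Levels over all filtered cells also differed between the libraries. Cd14 was 5.68 times as high in TCM, Tlr13 4.43 times, Tlr4 2.75 times, Tlr2 1.89 times, Myd88 1.55 times, Ly96 1.48 times and Tlr3 1.45 times, whereas Tlr7 and Ticam1 were at 1.03 times each and Tlr9 at 0.802 times. There were 228 CM and 1259 TCM neutrophil-like cells, with 2.07% and 13.2% of the UMIs of placed cells. Of the placed Cd14 UMIs they held 47.6% in CM and 86.1% in TCM, of Tlr13 36.8% and 72.4%, of Tlr4 20% and 62.1%, of Tlr2 18.3% and 53.0%, and of Myd88 9.14% and 45.9%. For Tlr7 that share was 2.27% and 9.30%, and alveolar macrophage-like cells held 47.7% in both libraries.

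**Figure D4:**
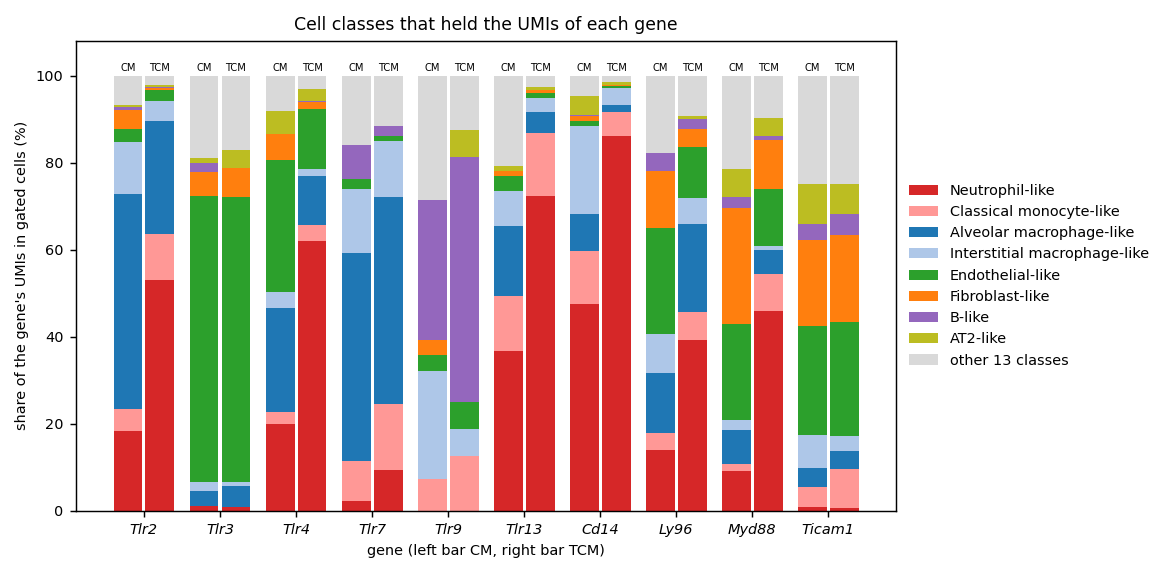
Share (%) of each gene's UMIs in placed cells that lay in each class, left bar CM and right bar TCM for each gene. The neutrophil-like share of Cd14 goes from 47.6% to 86.1% and that of Tlr4 from 20% to 62.1%, while endothelial-like cells hold 65.6% of Tlr3 in both bars.

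The class make-up and the levels within classes were then separated by arithmetic. Giving every class its CM level and the TCM make-up changed Cd14 over placed cells by 3.73 times, out of 5.67 times observed, and Tlr13 by 3.12 times out of 4.63. For Tlr4 these values were 2.15 and 2.82, and for Myd88 1.41 and 1.70. For Tlr2 the make-up alone gave 2.06 times, above the 1.86 observed. Without neutrophil-like cells, Cd14 was still 1.69 times as high in TCM (interval 1.57 to 1.82), Tlr13 2.28 times (1.64 to 3.21), Tlr4 1.51 times (1.21 to 1.88), Tlr3 1.51 times (1.14 to 2.01), Tlr2 1.21 times (1.07 to 1.36) and Myd88 1.14 times (1.02 to 1.27). The intervals of Tlr7, Tlr9, Ly96 and Ticam1 included 1. The make-up still differed among the remaining cells, as classical monocyte-like cells held 1.29% of placed UMIs in CM and 3.47% in TCM. Whether more neutrophils were in the lung or more of them survived dissociation and the droplet run cannot be told apart in these data.

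**Figure D5:**
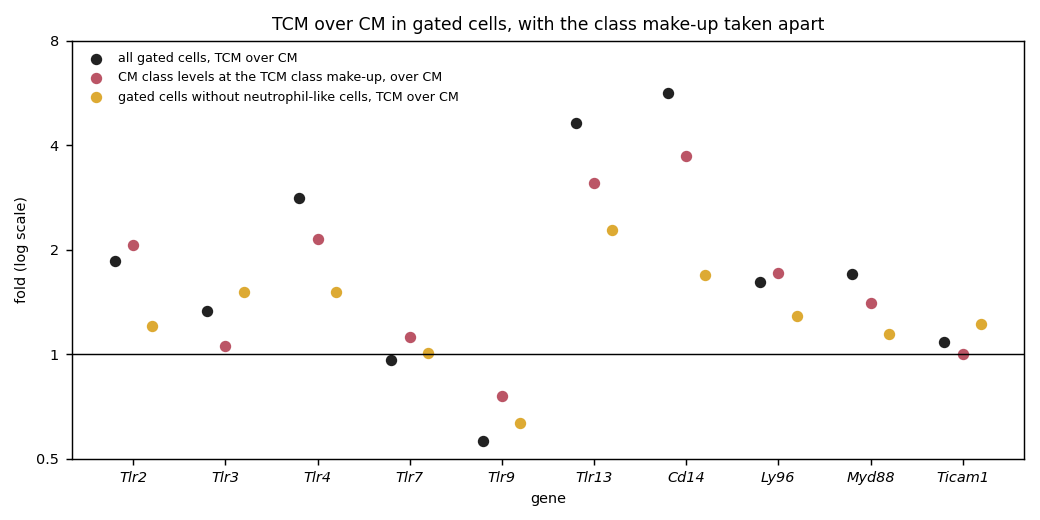
Fold of TCM over CM (log scale) for each gene in all placed cells (black), for CM class levels at the TCM class make-up (red) and without neutrophil-like cells (yellow). Cd14 and Tlr13 have the highest black points, 5.67 and 4.63, with red points at 3.73 and 3.12.

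A list of 34 further genes of the pathway gave 207 counted pairs with the compared classes, of which 11 were past 2-fold, 6 higher and 5 lower in TCM. Over all genes the share past 2-fold ran from 2.52% in endothelial-like to 21.7% in neutrophil-like cells. In neutrophil-like cells 7 of 23 counted genes passed, beside the 21.7% of all genes. Tlr1, a partner of Tlr2, had 1 UMI in CM and 82 in TCM (0.315 and 3.98 CP100k, log2 ratio 3.66, interval 1.14 to 8.98), whereas Tlr6, its other partner, was at 5.04 and 4.90 CP100k. Lbp, which carries lipopolysaccharide to Cd14, had 4 and 76 UMIs (log2 ratio 1.55, interval 0.13 to 3.46), and the kinase Irak4, recruited by Myd88, had 6 and 102 (1.39, interval 0.22 to 2.87). Lower in TCM were the ubiquitin ligase Traf3 (12 and 10 UMIs, -2.96), the transcription factor Irf5 (20 and 45, -1.53), the NF-κB inhibitor Tnfaip3 (129 and 316, -1.41) and the receptor chaperone Cnpy3 (12 and 38, -1.04). The interval of Cnpy3 (-2.004 to 0.04) included 0, and those of the other 3 did not. The remaining 4 pairs were Traf3 in AT1-like cells (14 and 6 UMIs, log2 ratio -1.0), the fatty acid and lipoprotein receptor Cd36 in mural-like cells (11 and 25, 1.63), and in NK-like cells Cd36 (9 and 12, 1.22) and Unc93b1 (9 and 13, 1.33), which carries nucleic-acid sensing receptors to endosomes. Of these 4 intervals only that of Cd36 in mural-like cells (0.56 to 2.80) excluded 0. The pairs were 1 of 17 counted genes in AT1-like cells (all genes 4.81%), 1 of 15 in mural-like cells (4.13%) and 2 of 12 in NK-like cells (6.95%). So few pairs cannot be read as a result about the list. In the other 7 compared classes 0 pairs of this list passed, where 2.52% to 7.11% of all genes did.

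Genes with the most similar pattern were found by the Pearson correlation of log2(CP100k + 1) over 22 points, the 11 classes in 2 libraries, among 11816 genes with at least 100 UMIs. The points of a library share their depth and their free RNA, so these values are descriptions. Tlr2 was most like Alox5 (r = 0.987), Csf2ra and Alox5ap, which encode leukotriene synthesis proteins and the GM-CSF receptor. Tlr13 was most like I830077J02Rik (0.988), Cd33 and Nlrp3, and Cd14 was most like Cxcl2 (0.974), Igsf6 and Cd300ld. Tlr4 had Picalm (0.927), Gm5150 and Nadk, and Tlr7 had Smpdl3b (0.969), Tbc1d9 and Slamf9. Tlr9 had Blnk (0.898), Fgd2 and Ciita, from only 31 Tlr9 UMIs, fewer than the 100 asked of the other genes. Tlr3 had Git1 (0.920), Sorbs3 and Maoa, Ly96 had Cd300a (0.927), Lst1 and Alox5ap, Myd88 had Grina (0.949), Ogfrl1 and Dgat2, and Ticam1 had 2610507B11Rik (0.818), Slc35b2 and Evi5l. Between members, r was highest for Tlr13 with Cd14 (0.951) and Tlr2 with Ly96 (0.9095), and for Tlr4 with Ticam1 it was -0.367.

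Taking classes from clusters, 167 CM and 266 TCM cells were classical monocyte-like, which allowed a comparison of the class that the gate left just under 50 CM cells. The cluster was mixed: the gate had placed 235 of its 433 cells, and 71.1% of those as classical monocyte-like. There Cd14 stood at 90.4 and 165 CP100k (log2 ratio 0.86, interval 0.72 to 1.01), Myd88 at 7.04 and 15.6 (1.15, interval 0.64 to 1.68), Tlr2 at 14.3 and 22.0 (0.62, interval 0.26 to 1.003) and Tlr4 at 1.62 and 3.96 (1.28, interval 0.24 to 2.50). Tlr7 was lower in TCM, 5.41 and 3.07 CP100k (-0.82, interval -1.55 to -0.08). The intervals of Tlr13 (0.44, -0.08 to 0.98), Ly96 (0.21, -0.79 to 1.31), Ticam1 (1.01, -0.30 to 2.58) and Tlr9 (-2.16, -4.79 to 0.07) included 0. Tlr3, with 0 and 1 UMIs, had no ratio. No all-gene share or median is given for this cluster, so these values cannot be read as a result about the members. The gate had given equal Cd14 levels in both libraries for this class, so its ratio depended on how the cells were assigned.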

How the data were processed

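Lung cells of 2 libraries were captured with a droplet kit that reads the 5′ end of transcripts. The authors aligned reads to mm10 (GRCm38.p6) and counted them with Cell Ranger (version 4 in the file headers). The deposited matrices hold raw UMI counts per gene and barcode for 737280 barcodes, and the submitters' notes also name Seurat.

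Barcodes with at least 500 UMIs, at least 200 genes and at most 10% mitochondrial UMIs were kept, which held 81.09% (CM) and 73.43% (TCM) of all UMIs. Cells were classed by 8 markers per class. Doublets were treated only by the exclusion of cells with 3 or more markers of another lineage, and no doublet caller was run. Raw counts were summed per class and library. Intervals are exact Poisson for levels, exact Clopper-Pearson for shares, and exact conditional binomial for ratios. They cover counting error only. A sum of 0 was set to 3 counts for a bound, and ratios were read against 2-fold only with at least 20 UMIs over both libraries. To compare shares, cells were thinned to 1000 UMIs and shallower cells left out (in neutrophil-like cells 80 of CM and 306 of TCM). Free RNA was measured in droplets of at most 50 UMIs and its amount per cell was estimated as 125.9 (CM) and 255.5 (TCM) UMIs. For T-like cells this predicts 0.323 and 3.99 CP100k of Cd14, against 0.193 and 1.45 counted, so the estimate is too high there. The ratio script was tested on simulated data.

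Named genes were all 10 members in every class, the genes of the 34-gene pathway list past 2-fold, the 3 genes most alike in pattern to each member, and the class markers. The members and lists were chosen with earlier results of these data known. Alternatives were other limits on markers, depth, mitochondrial share and UMI sums, classes from Leiden clusters, thinning, means over cells, subtraction of free RNA and centring on the median gene. Gene coordinates are from GENCODE on GRCm38. Software was Python 3.11.15, numpy 2.4.6, scipy 1.17.1, pandas 2.3.3, scikit-learn 1.9.0, leidenalg 0.10.2 and matplotlib 3.10.9.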

Additional observations from a re-analysis of the deposited data

Results flagged for a closer look

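Cd14 was also present outside cells. In droplets of at most 50 UMIs, which served only for the free RNA estimate, it had 48 UMIs in CM and 161 in TCM, or 6.89 CP100k (interval 5.08 to 9.13) and 37.3 CP100k (31.8 to 43.6), a fold of 5.42. This was noted because the TCM level stood above that of the control library. In all filtered cells the fold was 5.68. The other members had at most 25 UMIs in these droplets in either library.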

How the results depend on the processing

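The 42 ratios were recomputed under 9 alternatives, which gave 373 values. Of these, 344 stayed within the 95% interval of the reported ratio, 27 left it, and 2 that had been past 2-fold changed sign: Tlr2 in fibroblast-like cells with classes from clusters (0.27) and Cd14 in endothelial-like cells with free RNA subtracted (-2.24). The latter is no measured ratio, since more free UMIs were subtracted in TCM than were counted and the sum was set to 3 counts. Cd14 in neutrophil-like cells stayed between 0.62 and 0.88, and Myd88 there between 0.14 and 0.61. Thinning moved Tlr4 in neutrophil-like cells from 0.45 to -0.22, Tlr13 from 0.51 to 1.14 and Ly96 from -0.48 to -1.27.

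The count of 4 pairs past 2-fold was 2 with at most 1 marker of another lineage, 2 after thinning, 2 with at least 50 UMIs over both libraries, 9 with means over cells, 11 with classes from clusters and 14 with at least 10 UMIs over both libraries. With classical monocyte-like clusters added, a choice made after seeing the data, it was 14. The number of pairs counted and the share of all genes past 2-fold can change with the setting and are not given here. These counts therefore cannot be read as more or fewer differences of the members. With at most 1 marker of another lineage, the classes above T-like cells numbered 2 for Tlr4, 1 each for Tlr13 and Myd88, and 0 for Tlr7 and Tlr9. After thinning they numbered 3 for Tlr4, 1 each for Tlr7 and Ly96, and 0 for Tlr3 and Tlr9. For Tlr3 the number was 2 with clusters, and for Tlr9 it was 0 with at least 1000 UMIs per cell. The causes of these shifts were not tested, except that thinning and stricter limits leave fewer UMIs.

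No paired analysis was possible because each group had 1 library and no result came from a test. Mouse, library and treatment cannot be told apart, and depth limits Tlr9, Tlr7, Tlr3 and Ticam1.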
